A study of Arabidopsis thaliana with 28 samples.

Results

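The regions described here are windows of the Arabidopsis thaliana genome that RNA polymerase V (Pol V) transcribes outside the targets of RNA-directed DNA methylation (RdDM), but right beside such a target. The submitters divided the genome into windows of 200 bp that start every 150 bp and sorted them into 3 classes: Pol V transcribed and RdDM, Pol V transcribed and not RdDM, and not transcribed by Pol V. A non-RdDM window was taken as a flanking window when its start lay within 300 bp of the start of an RdDM window on the same chromosome. This gave 42283 flanking windows, which are 20.7% of the 204367 non-RdDM windows and 5.32% of all 794311 windows. The other 162084 non-RdDM windows, which start farther away, are called distal windows, and 158314 windows are RdDM windows.

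Pol V is a plant polymerase whose non-coding transcripts stay at the chromatin and act as a scaffold. Small interfering RNAs loaded into AGO4 pair with these transcripts, and the methyltransferase DRM2 is brought in to methylate cytosines there. Methylation in the CHH context (H is A, C or T) has no template on the other strand at replication and is the usual mark of RdDM, whereas CG and CHG methylation can also be kept by other enzymes.

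In IPARE an antibody, here against NRPE1, the largest Pol V subunit, pulls down the polymerase with its RNA, and the 5′ ends of that RNA are sequenced. All 24 IPARE libraries come from 18-day-old whole seedlings of ecotype Columbia: 6 of wild-type Col-0, 5 of nrpe1, 2 each of spt5l, ago4, dms5-1 and drd3-3, and 1 each of suvh2, suvh9, the double mutant suvh2/suvh9, dms3 and drd1. Bisulfite sequencing covered 4 samples of 3.5-week-old leaves of Col-0 and nrpe1, deposited as 1 average per genotype. The labels give an allele only for dms5-1 and drd3-3, and no transgene for any genotype.

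The spt5l mutant lacks SPT5L, a relative of the elongation factor SPT5 that binds both Pol V and AGO4, and ago4 lacks that Argonaute. DRD1, a chromatin remodeller, and DMS3, a hinge-domain protein, belong to the DDR complex that Pol V needs to transcribe. SUVH2 and SUVH9 are related proteins that bind methylated DNA and help to recruit Pol V. DRD3 is another name for the gene that encodes NRPE1.

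Libraries with the same tag in their title (gp2 to gp6, or untagged) form a set, a grouping that the labels leave unexplained. The windows were chosen by the authors' class lists, which the labels tie to read counts of 6 libraries, namely wild type and nrpe1 from gp3, gp4 and the untagged set. Values in these 6 are therefore a description. Wild type of gp2, gp5 and gp6 (n = 3), nrpe1 of gp5 and gp6 (n = 2) and all other mutants took no part in that choice. Total counts ranged from 785943 to 6957714 per library, of which ribosomal DNA (rDNA) took 25.5% to 70.1%. Whether replicates were grown separately is not stated, so p-values refer to the scatter among these libraries, which may be technical. In such bulk seedling libraries, fewer transcribing cells and less RNA per cell cannot be told apart.

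Most flanking windows touched their RdDM neighbour. Of the 42283, 28401 (67.2%) started 150 bp away and so share 50 bp with an RdDM window, and 13882 started 300 bp away, which leaves a gap of 100 bp. RdDM windows lay on both sides of 9025 flanking windows (21.3%) and on one side of 33258. Flanking windows formed 25547 unbroken runs. Of these runs 10816 were 1 window long, 13257 were 2, 943 were 3 and 531 were 4 windows long. They bordered 17937 of the 22169 stretches of adjoining RdDM windows, whose median length was 4 windows. All 5 chromosomes held between 6490 (chromosome 4) and 10158 (chromosome 1) flanking windows, which is 5.01% to 6.19% of the windows of each.

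The class took a smaller share of windows farther from RdDM windows. Of the windows outside the RdDM class, 75.8% were non-RdDM Pol V windows at 150 bp, 60.3% at 300 bp and 46.8% at 450 bp. The share was 38.6% at 600 bp, 32.9% at 750 bp and 26.4% beyond 3000 bp. These shares come from the class lists themselves and carry no test.

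Flanking windows lay between genes more often than distal windows did. A protein-coding gene covered 18.8% of flanking windows, against 54.0% of distal and 9.37% of RdDM windows. Another 34.8% lay within 1 kb of a protein-coding gene and 39.6% farther from any, against 27.9% and 15.3% of distal and 16.7% and 38.7% of RdDM windows. Pseudogenes covered 5.01% of flanking windows and 34.1% of RdDM windows. The share far from protein-coding genes was thus close to that of RdDM windows, and the share within 1 kb of one was larger. These shares describe the lists and were not tested.

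Levels below are counts per window per 1000000 counts in windows not transcribed by Pol V, with rDNA left out. In the 6 Col-0 libraries flanking windows had a level of 3.05 at the lowest, 5.13 at the median and 9.64 at the highest. In the 5 nrpe1 libraries, which lack the protein the antibody binds and so give its background, the levels were 0.390, 0.478 and 0.940 at the same points. The 2 ranges did not overlap. In the libraries that took no part in choosing the windows, Col-0 levels were 5.60 (gp2), 4.59 (gp5) and 3.05 (gp6), and nrpe1 levels were 0.390 (gp5) and 0.426 (gp6). Col-0 averaged 4.41 ± 1.28 (SD, n = 3) and nrpe1 0.408 ± 0.0258 (n = 2). Within a set, Col-0 was 11.8 times nrpe1 in gp5 and 7.16 times in gp6. No p is given for such sums, because the windows were chosen with results of these data known.

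**Figure D1:**
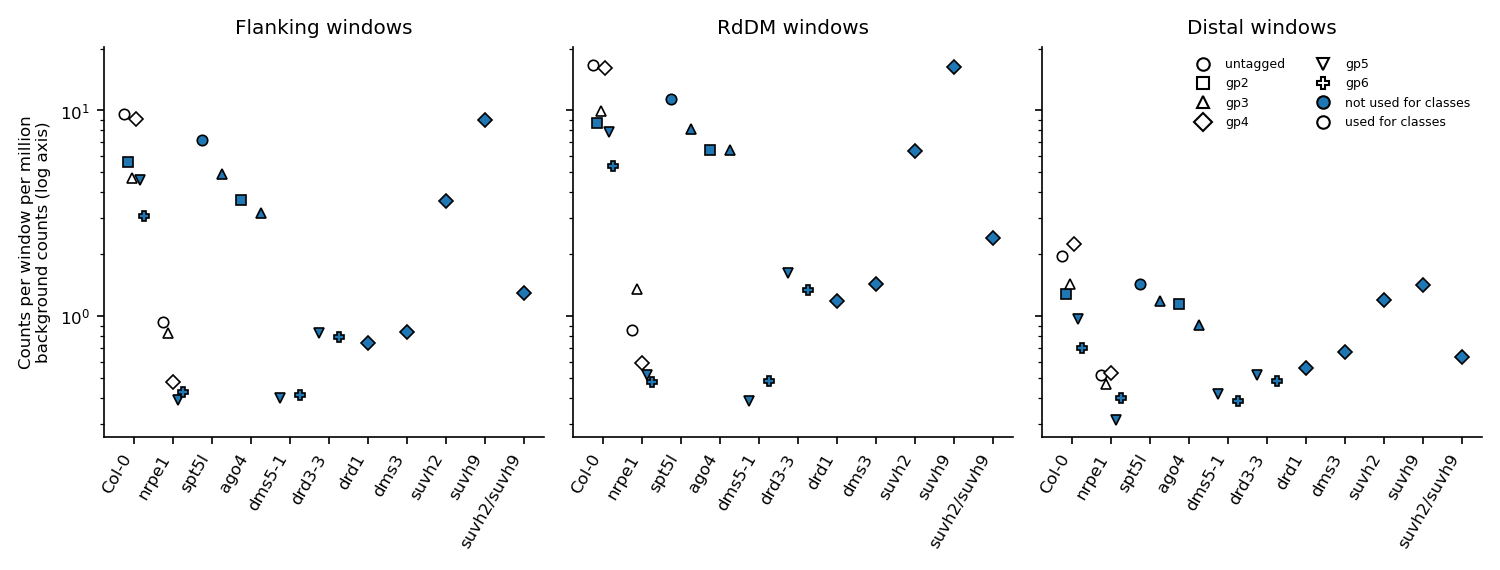
Counts per window per 1000000 background counts (log axis) in each of the 24 IPARE libraries, for flanking, RdDM and distal windows; marker shape is the set, open markers are the 6 libraries used for the classes and blue markers the others. Flanking windows run from 3.05 to 9.64 in Col-0 and from 0.390 to 0.940 in nrpe1, and among the other mutants they are lowest in dms5-1 (0.403 and 0.412) and highest in suvh9 (8.96).

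The background was concentrated in few windows. The 1% of flanking windows with the most reads held 15.3% to 25% of the flanking counts in the Col-0 libraries, but 56.0% to 75.6% in nrpe1. Conversely, 68.1%, 51.2% and 35.7% of flanking windows had at least 1 read in Col-0 of gp2, gp5 and gp6, against 5.33% and 4.14% in nrpe1 of gp5 and gp6. RdDM windows of the same libraries had levels of 8.66, 7.89 and 5.40 in Col-0 of gp2, gp5 and gp6 and 0.516 and 0.477 in nrpe1. Flanking windows thus stood at 64.6%, 58.1% and 56.6% of the RdDM level in Col-0. Distal windows had levels of 1.28, 0.974 and 0.698 in Col-0 and 0.315 and 0.400 in nrpe1, so their Col-0 to nrpe1 ratio was 3.10 in gp5 and 1.74 in gp6.

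The level was lower with each step from 150 to 600 bp away from RdDM windows. Non-RdDM windows at 150 bp had 6.36, 5.37 and 3.54 in Col-0 of gp2, gp5 and gp6. At 300 bp, just inside the rule, they had 4.04, 2.99 and 2.06. Just outside it, at 450 bp, the 9031 windows had 2.50, 1.80 and 1.25. Each library followed that order, and the Col-0 mean went on to 1.38 ± 0.454 at 600 bp (SD, n = 3). In nrpe1 the means over 2 libraries were 0.421, 0.382, 0.338 and 0.333 at 150, 300, 450 and 600 bp. The Col-0 to nrpe1 ratio therefore went from 12.1 to 7.94, 5.47 and 4.14.

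Since the class lists decide which windows enter that series, the ratio was also taken over all windows outside the RdDM class, Pol V transcribed or not. There the Col-0 to nrpe1 ratio was 7.92 at 150 bp, 2.63 at 300 bp, 1.51 at 450 bp and 1.14 at 600 bp. It was 1.20 at 750 bp, 1.13 at 900 bp and 1.00 at 1050 bp. Without the choice of transcribed windows Col-0 stood between 1.00 and 1.27 times nrpe1 at every step from 600 to 3000 bp. Most windows at these steps belong to the non-transcribed class that sets the scale, which draws the ratio toward 1. This series therefore cannot show where Pol V signal ends. Among non-RdDM Pol V windows alone the ratio lay between 2.20 and 4.77 from 750 to 3000 bp. Windows not transcribed by Pol V that lie within 300 bp of an RdDM window had levels of 1.87 and 1.73 in Col-0 of gp5 and gp6 and 1.5 and 1.53 in nrpe1.

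**Figure D2:**
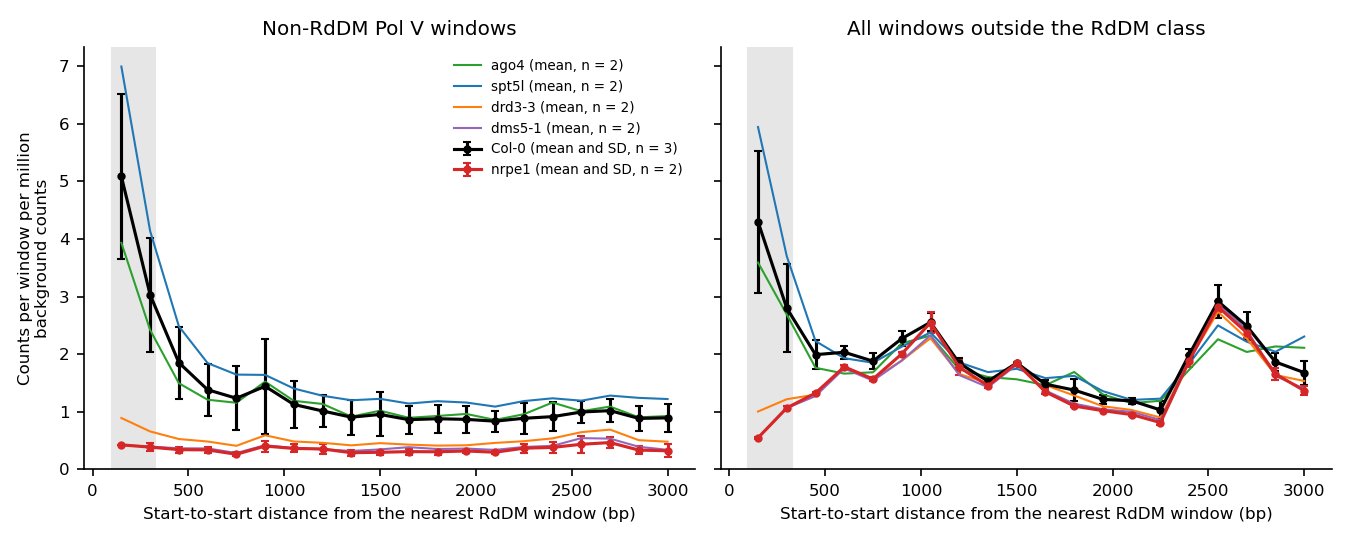
Level (counts per window per 1000000 background counts) against start-to-start distance from the nearest RdDM window in bp, for non-RdDM Pol V windows (left) and all windows outside the RdDM class (right); lines are means over libraries of Col-0, nrpe1 and 4 other mutants, bars SD, and the grey band marks the flanking windows. Col-0 goes from 5.09 at 150 bp to 3.03 at 300 bp and 1.85 at 450 bp in the left panel, and nrpe1 from 0.421 to 0.338 over the same steps.

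Neighbouring windows share reads. In the sparse nrpe1 and dms5-1 libraries, where a lone read can be seen as a run of windows with a count of 1, 53.1% to 61.4% of such runs covered 2 neighbouring windows and 4.03% to 6.52% covered 3 or more. A flanking window at 150 bp can thus hold reads that were also counted in its RdDM neighbour. Windows at 300 bp share no base with the RdDM window, and a read must span the gap of 100 bp to count in both. How far the decline with distance comes from such reads was not tested.

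Flanking windows had more reads next to stronger RdDM windows, in Col-0 and in nrpe1. They were divided into 4 groups by the reads of the nearest RdDM window in the 3 Col-0 libraries used for the classes, with medians of 9, 17, 31 and 83 reads. In the independent Col-0 libraries the flanking levels were 1.61 ± 0.416, 2.86 ± 0.769, 4.58 ± 1.47 and 8.77 ± 2.54 (SD, n = 3). In nrpe1 they were 0.168, 0.289, 0.431 and 0.758, so that the Col-0 to nrpe1 ratio was 9.55, 9.89, 10.6 and 11.6. At 300 bp alone Col-0 had 1.42, 2.26, 3.50 and 4.74 and nrpe1 0.183, 0.251, 0.415 and 0.649, and the ratios of 7.75, 9, 8.44 and 7.30 followed no order. The order of the Col-0 levels held in gp2, gp5 and gp6 each, although window by window the relation was loose. Over 13879 windows at 300 bp, log2(count + 1) in one set of 3 Col-0 libraries and of the RdDM neighbour in the other 3 gave Pearson's r of 0.214 and Spearman's rho of 0.184, which is a description across windows that share libraries.

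The level also differed with the surroundings. Flanking windows with RdDM on both sides reached 6.68 ± 1.59 in Col-0, beside 0.705 in nrpe1. Those with RdDM on one side had 3.8 ± 1.20 and 0.328. Beside isolated RdDM windows it was 6.11 ± 1.84 in Col-0, beside stretches of 2 to 5 windows 4.11 ± 1.21, of 6 to 20 windows 3.66 ± 1.00 and of more than 20 windows 4.31 ± 1.21. In nrpe1 the windows beside isolated RdDM windows also had the highest value of the 4, 0.714. Flanking windows within 1 kb of a protein-coding gene had 5.18 ± 1.43 in Col-0 and 0.232 in nrpe1, a ratio of 22.3, and those inside such genes 2.97 ± 0.836 and 0.432, a ratio of 6.86.

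Methylation of flanking windows was low and often not measured. The deposited table gave no value in any context in Col-0 for 41.2% of flanking windows, against 9.40% of RdDM, 16.8% of distal and 8.49% of non-transcribed windows. Another 25.3% had under 2% methylation in all 3 contexts, 11.9% had CG or CHG but not CHH methylation of at least 2%, and 4.12% had CHH methylation of at least 2%. Among RdDM windows 70.2% were CHH methylated by the same rule. The remaining flanking windows lacked a value in at least 1 context. The coverage behind these averages is unknown, so they carry no error.

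Over flanking windows with a value, the mean level in Col-0 was 22.2% for CG, 4.73% for CHG and 0.891% for CHH, with a median of 0% in each. RdDM windows averaged 73.4%, 34.6% and 10.2%. At 150 bp the CHH mean was 1.21%, at 300 bp 0.246% and at 450 bp 0.101%. CHG went from 6.55% to 1.09% and 0.396% over the same steps. CG went from 27.7% to 10.9% and 8.19%, and was 20.1% at 1500 bp. Flanking windows with RdDM windows on both sides had 62.0% CG, 20.2% CHG and 3.31% CHH, against 14.5%, 1.83% and 0.400% with RdDM on one side.

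**Figure D3:**
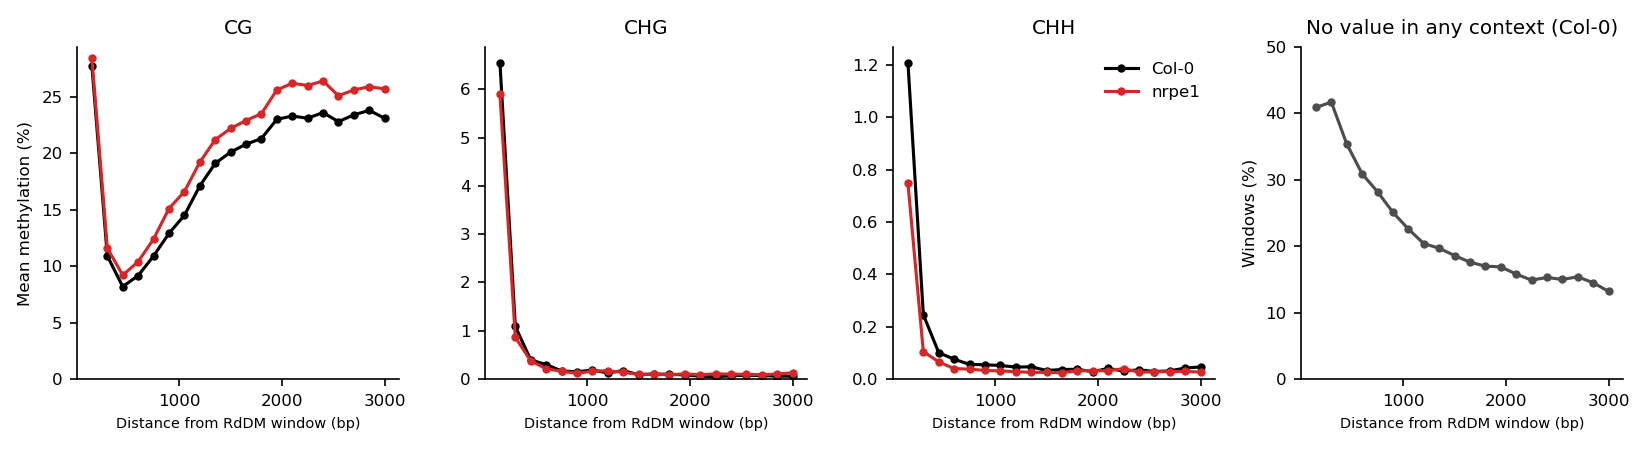
Mean methylation (%) of non-RdDM Pol V windows in CG, CHG and CHH against distance from the nearest RdDM window in bp, for the authors' Col-0 and nrpe1 averages, and the percent of windows with no Col-0 value in any context. CHH in Col-0 goes from 1.21% at 150 bp to 0.246% at 300 bp, and windows with no value make up 40.9% and 41.7% there.

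In nrpe1 CHH methylation of flanking windows was lower and CG was not. Over the 20356 flanking windows with a CHH value in both genotypes the mean went from 0.791% in Col-0 to 0.540% in nrpe1, and 30.1% of windows were lower and 16.7% higher. In CG the means were 21% and 22.1%, and in CHG 4.34% and 4.16%. The 1509 flanking windows with CHH methylation of at least 2% in Col-0 and a value in nrpe1 went from 6.62% to 4.99%, and 72.0% of them were lower. RdDM windows taken by the same rule went from 10.8% to 7.93%, and 62.6% of them were lower, so the decrease was not particular to flanking windows. Both groups were taken by their Col-0 value, and the part of that choice in the difference was not tested.

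Pol V signal was also found at flanking windows with little methylation. Flanking windows under 2% in all 3 contexts had 2.69, 2.11 and 1.40 in Col-0 of gp2, gp5 and gp6 and 0.221 and 0.289 in nrpe1. The groups did not overlap, and the Col-0 to nrpe1 ratio of the means was 8.09. For those at 300 bp the ratio was 4.99. Within a set the ratio was 9.53 (gp5) and 4.85 (gp6) for all low-methylation flanking windows, and 5.95 and 2.67 for those at 300 bp. Methylation was measured in older leaves, not in the seedlings of the IPARE libraries. Windows with CG or CHG methylation had 4.51 ± 1.22 in Col-0 and 0.323 in nrpe1. CHH-methylated windows had 6.37 ± 1.29 and 1.03, and windows with no value 5.69 ± 1.73 and 0.559. Low-methylation windows at 450 bp had a ratio of 3.36.

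**Figure D4:**
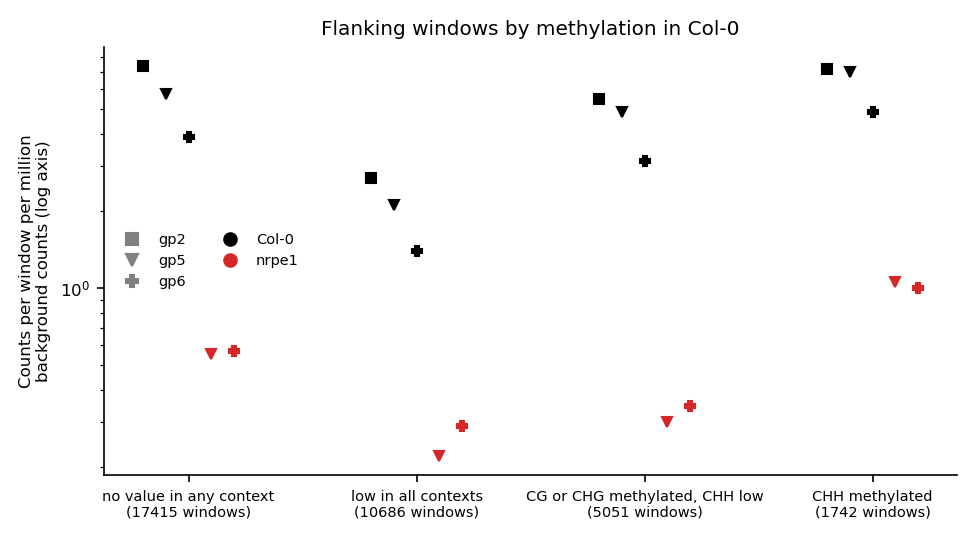
Level (counts per window per 1000000 background counts, log axis) of flanking windows in 4 methylation states of Col-0, one point per independent library, black for Col-0 and red for nrpe1. In each state the 3 Col-0 points lie above the 2 nrpe1 points, and the low-methylation windows have the lowest Col-0 values, 1.40 to 2.69.

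Mutants fell into groups at flanking windows. The dms5-1 libraries had levels of 0.403 (gp5) and 0.412 (gp6), beside 0.390 and 0.426 in nrpe1 of the same sets. Above nrpe1, they kept 0.302% and −0.536% of the Col-0 signal of their set. The drd3-3 libraries had 0.830 and 0.793, and kept 10.5% and 13.9% above nrpe1, against 15.1% and 17.5% at RdDM windows. Both drd3-3 libraries lay above both nrpe1 and both dms5-1 libraries.

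The mutants of the recruiting proteins have 1 library each, all in gp4, so no test was possible. The flanking level was 0.738 in drd1 (95% exact Poisson interval 0.731 to 0.746), 0.841 in dms3 (0.832 to 0.851) and 0.478 in nrpe1 of that set. It was 3.64 in suvh2 (3.62 to 3.66), 8.96 in suvh9 (8.92 to 9), 1.29 in the suvh2/suvh9 double mutant (1.28 to 1.30) and 9.06 in Col-0. The intervals cover counting error only, and reads counted in neighbouring windows make them too narrow. Relative to Col-0 of gp4, drd1 kept 8.15%, dms3 9.29%, suvh2 40.2%, suvh9 99% and the double mutant 14.3%, against 7.40%, 8.91%, 39.7%, 101% and 14.9% at RdDM windows. These shares include the background. Above nrpe1 of gp4 they were 3.03%, 4.24%, 36.9%, 98.9% and 9.48% at flanking windows and 3.84%, 5.41%, 37.3%, 101% and 11.6% at RdDM windows. The Col-0 and nrpe1 libraries of gp4 helped to choose the windows. Against the mean of the 3 independent Col-0 libraries the values were 16.7%, 19.1%, 82.5%, 203% and 29.3%, so whether suvh9 lies above or below Col-0 turns on the reference.

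Libraries of spt5l had 7.21 (untagged) and 4.91 (gp3), and ago4 had 3.68 (gp2) and 3.19 (gp3). Relative to Col-0 of its set, spt5l stood at 74.7% and 105% at flanking windows and at 68.5% and 81.8% at RdDM windows. Relative to the same references ago4 stood at 65.7% and 68.3%, against 74.5% and 64.3% at RdDM windows. Of these Col-0 references, those of the untagged set and gp3 helped to choose the windows. Against the 3 independent Col-0 libraries spt5l stood at 163% and 111% at flanking windows and at 156% and 111% at RdDM windows, and ago4 at 83.4% and 72.3% against 88.2% and 87.4%. Whether spt5l lay below or above Col-0 thus turned on the reference. So did whether flanking windows kept more than RdDM windows in ago4 of gp3. In spt5l the flanking share was not below the RdDM share with either reference.

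**Figure D5:**
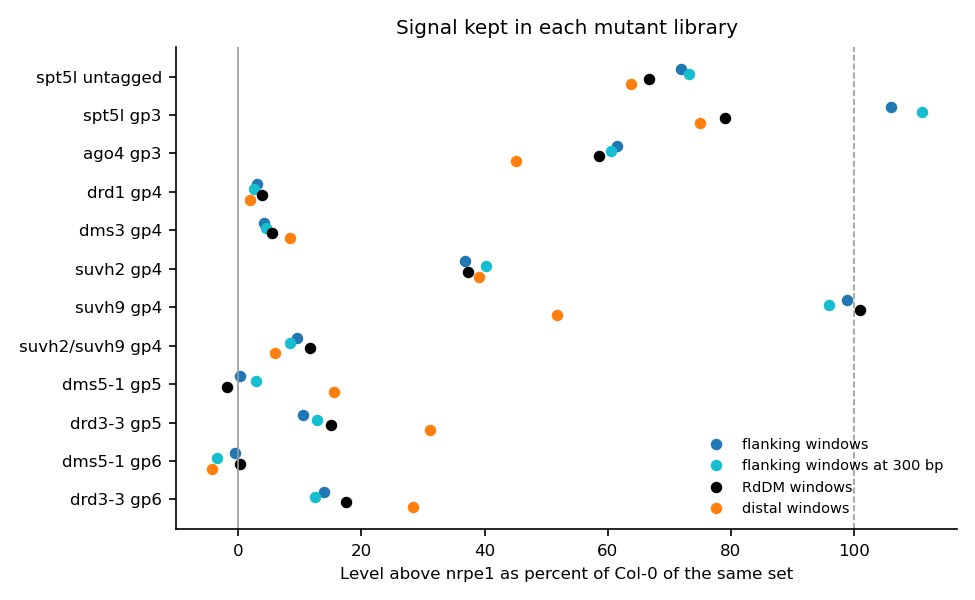
Level above nrpe1 of the same set, as percent of the same difference in Col-0, for 12 mutant libraries at flanking, 300 bp flanking, RdDM and distal windows; solid and dashed lines mark 0 and 100. The dms5-1 libraries lie at 0.302 and −0.536 at flanking windows, and drd3-3 lies at 10.5 and 13.9, below its RdDM values of 15.1 and 17.5.

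Single windows were tested across the whole table with edgeR's quasi-likelihood test and Benjamini-Hochberg adjustment over 20330 windows with enough reads in the 13 independent libraries. Only 1943 of the 42283 flanking windows passed that filter, so the counts below describe these windows and support nothing about the rest. A window could pass through the reads of 1 genotype alone, and a call in a comparison with that genotype is then a description. Windows that passed through Col-0 alone lean toward lower calls, and how many did so was not counted. In nrpe1, 1537 of the 1943 were lower and 30 higher than in Col-0, beside 73.6% and 6.89% of all windows tested. With the set as a block 155 of these 1537 were still lower, and none of the 30 was still higher (1 other window was). Leaving out a dms5-1 library (gp5 or gp6) gave 2626 and 2620, and leaving out a drd3-3 library 2635 and 2593, with 3393 to 3424 flanking windows then tested. The higher calls numbered 2 without nrpe1 of gp5, 52 without Col-0 of gp6, and 14 to 19 without nrpe1 of gp6, either spt5l library, either dms5-1 library or drd3-3 of gp5. Scaling to windows not transcribed by Pol V gave 1752 lower and 0 higher, so none of the 30 higher calls held under that scaling.

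For dms5-1 against Col-0 1648 flanking windows were lower and 11 higher (background 76.7% and 3.17%), and 442 and 2 with the block. Without drd3-3 of gp5, drd3-3 of gp6 or nrpe1 of gp6 2779, 2742 and 2768 were lower. The higher calls numbered 18 without ago4 of gp3 and 1 without dms5-1 of gp6. Between dms5-1 and nrpe1 0 windows were called in either direction by edgeR, beside 0% of all windows tested, and 0 by DESeq2. At an unadjusted p under 0.05 edgeR gave 24 lower and 1 higher in dms5-1. For drd3-3 against Col-0 1001 were lower and 59 higher (47.8% and 8.01%), and 0 and 0 with the block. Without the gp5 library of drd3-3 0 were lower and 2 higher, and without its gp6 library 639 and 26. Without dms5-1 of gp5 or gp6, or nrpe1 of gp6, 1540 to 1543 were lower, and with scaling to the non-transcribed class 1572 were lower and 9 higher. Against nrpe1, 24 flanking windows were higher in drd3-3 and 0 lower (1.89% and 0% of all tested), and 6 and 1 with the block. Unadjusted p was under 0.05 for 131 higher and 3 lower ones, and DESeq2 called 11 and 1. Those 24 became 0 when either nrpe1 library was left out, 5 and 13 without the gp5 or gp6 library of drd3-3, 37 without Col-0 of gp2, and 39 and 43 without ago4 of gp2 or gp3. Without Col-0 of gp2 1 was lower.

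For ago4 against Col-0 389 flanking windows were lower and 114 higher (15.2% and 9.27% of all tested), 24 and 4 with the block, and 391 and 51 with class scaling. Only gp2 holds both ago4 and Col-0 in this fit, so counts and p-values with the block rest on that set for ago4. Without Col-0 of gp5 67 were higher. For spt5l 125 were lower and 111 higher (7.46% and 3.03%), and 0 in either direction with the block, in a fit where no Col-0 library shares a set with spt5l. Class scaling gave 84 and 171. Without the untagged spt5l library 53 were lower and 19 higher, and without that of gp3 48 and 19. The higher spt5l calls also dropped to 64 without Col-0 of gp5 and to 73 without nrpe1 of gp5, and the lower ones to 77 and 63 without Col-0 of gp2 or gp5. The median fitted log2 change of the tested flanking windows was 0.18 for spt5l and −0.25 for ago4, beside 0.01 and −0.05 over all windows tested. Class scaling moved the latter to 0.43 and −0.32 and the flanking medians to 0.60 and −0.53.

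Among flanking regions lower in nrpe1, those with the most Col-0 reads differed in how firmly they held. The window at chr1:20979601-20979800 (TAIR10), between AT1G56090 and AT1G56100, had 312, 98 and 48 reads in Col-0 of gp2, gp5 and gp6 and 1 and 1 in nrpe1. Scaled to background counts that was 104-fold (95% counting interval 28.6 to 861), with an edgeR adjusted p of 0.000579 and 0.00290 with the block. The dms5-1 libraries had 0 reads each there, drd3-3 2 and 3, drd1 2 and dms3 9, while spt5l had 517 and 398. The reads were thus present in all 6 Col-0 libraries and few or none in nrpe1, dms5-1, drd3-3, drd1 and dms3. Its RdDM neighbour had 608 reads in the 3 independent Col-0 libraries.

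The window at chr2:13095001-13095200, between AT2G30730 and AT2G30740, had 261, 55 and 36 Col-0 reads and 1 and 0 in nrpe1. Its edgeR adjusted p was 0.000579, and 0.0112 with the block. The ago4 libraries had 10 and 4 reads and suvh9 5, whereas spt5l had 331 and 140. Few ago4 reads were also found at chr1:4525051-4525250, between the tRNA gene AT1G13240 and MIR8166, in a region of 2 windows. There spt5l had 25 and 17 reads and suvh9 132, unlike at the former window. It had 202, 46 and 25 Col-0 reads, 0 and 1 in nrpe1, and 3 and 0 in ago4, where edgeR gave a log2 change of −6.50 ± 0.748 (SE; adjusted p = 9.39e-07, 0.0121 with the block). The window near MIR8166 passed the read filter only through Col-0, so its p-values describe and give no support. Both windows also had few reads in Col-0 of gp3, 2 and 1, so the Col-0 libraries themselves were not uniform there.

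At chr3:10008601-10008800, between AT3G27140 and AT3G27150, nrpe1 of gp5 and gp6 had 0 reads and Col-0 142, 48 and 30. Against a floor of 3 counts over the nrpe1 group that was at least 33.3-fold higher in Col-0 of those sets (edgeR adjusted p = 0.000579, 0.00490 with the block). Nrpe1 of the untagged set did have 21 reads there, beside 508 in its Col-0, and with all Col-0 and nrpe1 libraries the fitted log2 change was −2.45 (edgeR adjusted p = 0.0179). Unlike the first windows it kept reads in drd3-3 (33 and 18), drd1 (70) and dms3 (86). The suvh2/suvh9 double mutant had 134 reads there, beside 66 in Col-0 of gp4, and 47 beside 187 at chr1:20979601-20979800. The window at chr4:5896951-5897150, between AT4G09290 and AT4G09300, was one of the CHH-methylated ones, with 52.2% CG, 9.01% CHG and 2.38% CHH in Col-0. It had 131, 73 and 30 Col-0 reads and 5 and 0 in nrpe1 (edgeR adjusted p = 0.00360, 0.0190 with the block). It had 388 reads in drd1, 292 in dms3, 83 and 79 in drd3-3 and 251 in the double mutant, beside 94 in Col-0 of gp4. So at this window reads were few in nrpe1 and dms5-1 (2 and 5) but not in drd1, dms3 or drd3-3.

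Of the 10 regions with the most Col-0 reads, 4 rested on 1 library. The windows starting at 12817051, 12862801 and 12858901 on chromosome 5, among pseudogenes, had 1290, 996 and 999 reads in Col-0 of gp2 but 8 to 16 in Col-0 of gp5 and gp6 and 4 to 15 in nrpe1 of gp5 and gp6. In the sets that chose the classes nrpe1 was not low there: at 12817051 it had 384, 219 and 102 reads (untagged, gp3, gp4) beside 515, 206 and 90 in Col-0. Their edgeR adjusted p of 0.0189, 0.0439 and 0.0388 became 0.587, 0.369 and 0.330 with the block. The window starting at 11104051 on chromosome 1, in KUP10 and the tRNA gene AT1G31110, had 263, 7 and 4 Col-0 reads, and its adjusted p of 0.0108 became 0.577. The remaining region, at 3059851 on chromosome 4, had 130, 60 and 25 Col-0 reads and 0 and 1 in nrpe1 (edgeR adjusted p = 0.000602, 0.0105 with the block), next to an RdDM window with 2699 reads.

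The 5 regions called higher in nrpe1 with the lowest p had few reads, and their calls depended on the fit. The first, starting at 16060801 on chromosome 3, had 24, 8 and 5 reads in Col-0 and 27 and 8 in nrpe1, with an edgeR adjusted p of 0.00111 that became 0.0608 with the block and 0.0724 with class scaling. It stayed called with library totals (0.0104), size factors (0.0294), DESeq2 (adjusted p = 0.0248) and all Col-0 and nrpe1 libraries (4.88e-05). The others lie on chromosome 3 (starts 13753351, 13725451 and 6486001, the last in RAB7B) and in the rDNA end of chromosome 2 (start 3001). Each of the 5 lost its call with class scaling, with the looser filter and with the block, while the RAB7B window had an edgeR adjusted p of 4.09e-05 with all Col-0 and nrpe1 libraries.

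Some flanking windows had reads in ago4 that Col-0 lacked. The window at chr3:7286551-7286750, between UCNL and PLT1, had 104 and 68 reads in ago4 and 0 in Col-0 of gp2, gp5 and gp6, in all 5 nrpe1 libraries and in the 11 libraries of the other mutants. Of the Col-0 libraries that chose the classes, the untagged one had 3 reads and that of gp4 had 2. The edgeR adjusted p was 9.39e-07, and 0.0347 with the block. The windows starting at 8540101 on chromosome 1, in the long non-coding RNA gene AT1G05857, and at 9626251, between AT1G27660 and AT1G27670, had 151 and 41, and 75 and 50, ago4 reads beside 5, 2 and 0 and 1, 1 and 0 in Col-0. Their calls (edgeR adjusted p = 3.63e-06 and 5.77e-06) were lost with the block (0.0707 and 0.141). All 3 windows passed the read filter only through the ago4 libraries, where they are high, so their p-values describe and give no support. None of these 3 windows was methylated at 2% or more in any context in Col-0. In the other direction, the window starting at 8815051 on chromosome 1, in AT1G25112 and AT1G25098, had 102, 33 and 15 Col-0 reads and 2 and 0 in ago4, but 110 and 121 in spt5l.

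The spt5l calls moved both ways. The window at chr3:18431251-18431450, between MYB84 and ACS9, had 55, 21 and 10 reads in Col-0 and 0 and 0 in spt5l, and that starting at 5907301 on chromosome 5, between CAX7 and PSRP6, had 53, 23 and 13 and then 1 and 0. In Col-0 of gp3, the set of the second spt5l library, these windows had 0 and 3 reads, so that few reads there were not particular to spt5l. The window starting at 25260751 on chromosome 1, between AT1G67420 and AT1G67430, had 4, 1 and 1 Col-0 reads and 101 and 91 in spt5l. Col-0 of gp3 had 52 reads there, so that the higher level was not particular to spt5l. The edgeR adjusted p of these windows was 7.53e-07, 5.64e-07 and 4.04e-06, and 1.0 for each with the block. The windows at 18431251 and 5907301 passed the read filter only through Col-0, and that at 25260751 only through spt5l. Their p-values therefore describe and give no support.

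At least 1 read was found in 8.08% and 10.2% of flanking windows in drd3-3 of gp5 and gp6, against 5.33% and 4.14% in nrpe1. The window at chr5:14994151-14994350, between AT5G37740 and AT5G37750, had 38, 28 and 19 reads in Col-0, 0 and 0 in nrpe1 and in dms5-1, and 72 and 51 in drd3-3. It also had 140 reads in drd1 and 98 in dms3, beside 32 in Col-0 of gp4. Against Col-0 the log2 change in drd3-3 was 3.24 ± 0.615 (SE; edgeR adjusted p = 0.00304, 0.124 with the block). The window starting at 14065201 on chromosome 3, among pseudogenes, had 10, 7 and 3 Col-0 reads, 2 and 0 in nrpe1, 15 and 18 in drd3-3, 69 in drd1 and 50 in dms3. The lower windows of drd3-3 included that starting at 5964601 on chromosome 4, near AT4G09420, with 123, 67 and 20 Col-0 reads and 0 in both drd3-3 libraries (edgeR adjusted p = 0.00348, 0.124 with the block). For dms5-1 the windows with the lowest p were the 3 near AT1G56090, MIR8166 and AT2G30740 described above, each with 0 reads in both dms5-1 libraries.

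Flanking windows lay at most known RdDM targets but were sparsely read. Of 10 genes known for RdDM or methylation at their promoter, 9 had a flanking window in the gene or within 1 kb, 25 windows in all, of which 0 passed the filter for a test. By that rule 39.8% of all 37899 genes in the table and 37.4% of protein-coding genes had one. A flanking window lies beside an RdDM window by definition, so the share at RdDM targets is tied to the choice of genes. SUP, the gene without one, had 0 RdDM windows in that span. ROS1, the demethylase gene whose promoter RdDM methylates, had 8 flanking windows with 24, 6 and 8 reads in Col-0 of gp2, gp5 and gp6 and 0 and 0 in nrpe1. MEA, an imprinted Polycomb gene, had 21, 8 and 2 Col-0 reads in 2 windows and 0 in nrpe1, and PHE1, another imprinted gene, 17, 10 and 4 against 1 and 0. SDC, an F-box gene silenced through repeats at its promoter, had 9, 8 and 3 against 0 and 0, and FWA, a homeobox gene silenced in the same way, 3, 0 and 2 against 0 and 0. At each of the 9 genes Col-0 of gp5 and gp6 together had more reads than nrpe1 of those sets, as raw counts from libraries of unequal depth, and no gene was tested. The reads were as few as 1 against 0, at FLC. These windows were chosen with other Col-0 and nrpe1 libraries, and the share over other genes was not taken, so this order is a description.

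Genes of the RdDM pathway held flanking windows too: 12 of 20, with 37 windows, of which 1 was tested and was lower in nrpe1. It lies at DMS3, where the 2 windows had 35, 6 and 4 Col-0 reads and 2 and 2 in nrpe1. SUVH9 had 11 flanking windows with 46, 18 and 4 Col-0 reads and 0 and 2 in nrpe1. MORC6, a GHKL ATPase gene, had 22, 7 and 3 against 0 and 0. Of 12 genes of abundant Pol II transcripts 3 had flanking windows, 10 in all, with 1 tested and 0 called by edgeR. At ACT7, an actin gene, 2 flanking windows outside the gene had 27, 20 and 7 Col-0 reads and 0 in nrpe1, and at LHCB2.1, a chlorophyll-binding protein gene, 6 had 116, 22 and 11 against 13 and 5. None of 15 transposons listed by name could be matched in the gene table.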

How the data were processed

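Counts of IPARE reads per window for 24 libraries, methylation fractions averaged over samples for Col-0 and nrpe1, and the 3 lists of windows were used as the authors deposited them; all 28 samples had a label for their group. The deposited counts are raw, and the deposited methylation fractions come with no coverage, so depth there is unknown. UMI-tools, cutadapt, Bowtie2, Bismark and the build TAIR10 are named per the submitters' processing notes, and the sources used here give neither their versions and settings nor the way classes were called. Gene names and neighbours came from RefSeq's table for TAIR10.1.

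Levels are counts per window per 1000000 counts in windows not transcribed by Pol V (222447 to 1651872 counts per library), with rDNA left out (12 flanking windows). Intervals are exact Poisson intervals and cover counting error only. Single windows were tested with edgeR 4.0.16 (R 4.3.3; filterByExpr with a minimum count of 10, TMM scaling, glmQLFTest) in the 13 libraries of Col-0, nrpe1, spt5l, ago4, dms5-1 and drd3-3 not used for the classes; calls had an adjusted p under 0.05. The procedure was checked on simulated counts for nrpe1 against Col-0. It called 0 of 50 windows lowered by 2 on the log2 scale and 11 of 50 lowered by 4. Of windows raised by 2 and by 4 it called 17 and 49 of 50. Decreases can thus go uncalled. The simulation changed only a small part of the windows, and in nrpe1 alone, whereas 73.6% of windows tested were called lower in the data. These rates need not hold for the real fit. DESeq2 1.42.0, other scalings and filters, and leaving out each library were alternatives. Sets pair Col-0 and nrpe1: same-set deviations from the group means correlated at 0.156, 0.284, 0.369, 0.354 and 0.111 over 15296 windows.

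The regions named are the 10 merged flanking regions lower in nrpe1 with the most Col-0 reads (at most 3 per chromosome), up to 5 higher in nrpe1 with the lowest p, and up to 3 per direction for spt5l, ago4, dms5-1 and drd3-3; some are given only in the counts. A further part of the rule, for the longest runs and the RdDM stretches with the most flanking windows, ended in ties (531 runs of 4 windows) and named none. The windows and the gene lists were chosen with earlier results of these data known. Python 3.11.15, numpy 2.4.6, pandas 2.3.3, scipy 1.17.1 and matplotlib 3.10.9 were used.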

Additional observations from a re-analysis of the deposited data

Results flagged for a closer look

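Groups of 5 or 6 libraries were tested at the named flanking windows and for levels summed over window classes. In 12 of 92 groups 1 library lay far from the others by Dixon's criterion, which chance meets in about 1 in 20 groups. All 12 were at named windows. Values are counts per window per 1000000 background counts.

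Among the Col-0 libraries, the window starting at 11104051 on chromosome 1 had 276.2 in gp2, where the next highest had 74.14 and the median was 36.52. The untagged library had 553.9 at 10008601 on chromosome 3 (next 151.3) and 88.31 at 13753351 on chromosome 3 (next 18.34). Col-0 of gp3 had 52.35 at 25260751 on chromosome 1 (next 4.361), and Col-0 of gp4 had 32.1 at 11470351 on chromosome 3 (next 11.07).

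Among the nrpe1 libraries, the untagged one stood apart at 4 windows, with 47.78 at 11104051 on chromosome 1 (next 12.63), 25.09 at 10008601 on chromosome 3 (next 1.223), 13.14 at 3059851 on chromosome 4 (next 3.734) and 7.167 at 5964601 on chromosome 4 (next 1.223). The gp5 library had 65.42 at 3001 on chromosome 2 (next 11.2), the gp3 library 9.784 at 14994151 on chromosome 5 (next 1.195), and the gp4 library 1.804 at 18431251 on chromosome 3, where the other 4 had 0. The value of 1.804 is a single read. Of these 12 values, 10 came from libraries used for the classes.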

How the results depend on the processing

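Leaving out 1 library at a time changed the counts of called flanking windows to 1090 to 2635 lower and 2 to 52 higher for nrpe1, 48 to 183 and 19 to 146 for spt5l, 261 to 481 and 67 to 130 for ago4, 1157 to 2779 and 1 to 18 for dms5-1, 0 to 1543 and 2 to 83 for drd3-3, and 0 to 1 and 0 to 43 for drd3-3 against nrpe1. For dms5-1 against nrpe1 both counts stayed at 0. For nrpe1, the lower calls numbered 2626 and 2620 without dms5-1 of gp5 or gp6 and 2593 without drd3-3 of gp6, and the higher ones 14 without spt5l (untagged) or nrpe1 of gp6 and 15 without spt5l of gp3 or dms5-1 of gp5. For spt5l, leaving out its untagged library, Col-0 of gp2 or Col-0 of gp5 gave 53, 77 and 63 lower, and the last 64 higher. For dms5-1, leaving out nrpe1 or drd3-3 of gp6 gave 2768 and 2742 lower. For drd3-3, leaving out dms5-1 of gp5 or nrpe1 of gp6 gave 1540 and 1542 lower, and its own gp6 library 639 lower and 26 higher. For drd3-3 against nrpe1, leaving out Col-0 or ago4 of gp2 gave 37 and 39 higher. When 1 library was left out, levels as percent of Col-0 ranged from 8.02 to 10.7 for nrpe1, 111 to 163 for spt5l, 67.5 to 89.9 for ago4, 8.00 to 10.7 for dms5-1 and 15.9 to 21.2 for drd3-3. The range for spt5l is that of its 2 libraries taken singly. For genotypes with 1 library, which have no spread between replicates, they were drd1 14.5 to 19.3, dms3 16.5 to 22.0, suvh2 71.5 to 95.3, suvh9 176 to 235 and suvh2/suvh9 25.4 to 33.8.

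With the replicate block the lower and higher counts were 155 and 1 for nrpe1, 0 and 0 for spt5l, 24 and 4 for ago4, 442 and 2 for dms5-1, 0 and 0 for drd3-3, and 1 and 6 for drd3-3 against nrpe1. The looser filter gave 5311 and 0, 230 and 271, 646 and 244, 5576 and 3, and 3027 and 16 for the first 5, as more windows were tested. All Col-0 and nrpe1 libraries together, some of which chose the classes, gave 3647 lower and 120 higher for nrpe1, 3584 lower for dms5-1, 1782 lower for drd3-3, 73 higher for spt5l, 47 higher for ago4 and 46 higher for drd3-3 against nrpe1.

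Scaling changed mostly the higher calls. For nrpe1 they were 4 with library totals, 2 with size factors, 0 with class scaling and 1 with DESeq2; for dms5-1 6, 4, 4 and 3; for drd3-3 17, 9, 9 and 7. For spt5l they were 195, 174 and 171 with the 3 scalings. For ago4 they were 56 with library totals, 51 with class scaling and 47 with DESeq2. Lower calls for drd3-3 were 1511, 1612 and 1572 with the 3 scalings. Against nrpe1, 1 window was lower in drd3-3 with each scaling and with DESeq2, and 11 were higher with DESeq2. The causes were not tested.

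At 300 bp alone, with fewer windows tested, the counts were 278 and 13 for nrpe1, 22 and 25 for spt5l, 73 and 24 for ago4, 306 and 5 for dms5-1, 194 and 20 for drd3-3, and 1 higher for drd3-3 against nrpe1. Of flanking windows with a value in 3 contexts, an alternative chosen after seeing the data, 384 and 8, 31 and 51, 93 and 30, 416 and 5, and 253 and 24 were called, and 7 were higher in drd3-3 against nrpe1.

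As percent of Col-0, all window counts as denominator gave 12.2 for nrpe1, 26.6 for drd1, 26.6 for dms3, 135 for suvh9 and 41.6 for suvh2/suvh9. Capping windows gave 49.7 for suvh2 and 135 for suvh9. At 300 bp nrpe1 was at 12.6 and dms5-1 at 12.9. The next 3 were chosen after seeing the data. Low-methylation windows gave 12.4 for nrpe1, 14.2 for dms5-1, 22.8 for drd1 and 29.7 for dms3, and windows with 3 values 12.4 for dms5-1 and 22.1 for drd1. Col-0 of the same set as reference gave 8.15 for drd1, 9.29 for dms3, 40.2 for suvh2, 14.3 for suvh2/suvh9 and 99 for suvh9, which turned the direction of the last. It gave 89.9 for spt5l against 137, below instead of above Col-0 but within the spread of the replicates. Over all windows outside the RdDM class the Col-0 to nrpe1 ratio was 7.92, 2.63, 1.51 and 1.14 at 150, 300, 450 and 600 bp. The median methylation of flanking windows was 0% in CG, CHG and CHH in both genotypes.

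Depth limits single windows: 1943 of 42283 flanking windows had enough reads to be tested, and nothing is said of the others one by one. Genotypes with 1 library have no replicate check. The 41.2% of windows with no methylation value enter no methylation mean. The antibody background is known only from nrpe1 libraries, which differ between sets.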
